A study of Mus musculus with 18 samples.

Results

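The cytosolic ribosomal protein genes were taken by name, as every row of the count table whose symbol is Rpl or Rps followed by a number, with or without a closing a, x, y, l or further digits, together with Rplp0, Rplp1, Rplp2 and Rpsa. This gave 88 of the 36757 genes in the table. The GENCODE annotation calls 83 of them protein coding, 51 for proteins of the large ribosomal subunit and 32 for proteins of the small subunit. The other 5 (Rpl32l, Rpl6l, Rps3a2, Rps3a3 and Rps4l) are annotated as pseudogenes, so they carry the name of the family without a known place in the ribosome. Rpl3l and Rpl39l, paralogs of Rpl3 and Rpl39, had too few counts to be tested in any comparison.

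The study asked how loss of RNF138, an E3 ubiquitin ligase, bears on intestinal inflammation and on colitis-associated cancer (CAC) in C57BL/6 mice. Mice aged 6 to 8 weeks carried either the floxed RNF138fl/fl allele, labelled wild type, or were labelled RNF138-/-, and the labels name no Cre driver. In the colitis model both genotypes drank 2% dextran sulfate sodium (DSS), which injures the colonic epithelium, for 7 days and plain water for 14 days in repeated cycles, and colorectal tissue was frozen 4 weeks after the last cycle. In the CAC model both genotypes were first injected with 10 mg/kg of the carcinogen azoxymethane (AOM) and then passed through the same DSS cycles, and the study's methods put their sampling at 4 weeks after the last DSS as well. Organoids were cultured in matrigel from tumour-bearing fragments of CAC mice of both genotypes. Each of the 6 groups held 3 libraries, 18 in all. The labels do not say that libraries came from separate animals, so the p-values measure the spread between these samples, which may be technical.

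A cytosolic ribosome joins a small subunit, which reads the messenger RNA, to a large subunit, which forms the peptide bond and passes the chain out through an exit tunnel. Its proteins are made in matched amounts, and most of their messages begin with a 5′ terminal oligopyrimidine (TOP) tract, a C followed by a run of C and T bases through which mTOR signalling controls their translation. Some genes have paralogs, such as Rpl22l1 beside Rpl22 and the p53 target Rps27l beside Rps27, and mammalian genomes hold many processed pseudogenes of the family. The intestinal epithelium renews itself quickly, and its crypt cells make ribosomes at a high rate.

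Several facts of the libraries bear on what follows. The libraries held 11514716 to 24390082 counts. Rnf138 overlapped between the genotypes in colitis and organoids and was higher in every CAC library labelled RNF138-/- than in every wild-type one. In CPM, counts scaled to library size by TMM (trimmed mean of M-values), it stood at 15.6 to 25.1 in wild type against 17.97 to 19.4 in colitis, at 21.5 to 27.5 against 39.6 to 45.7 in CAC and at 37.7 to 55.6 against 42.7 to 50.2 in organoids, and a count over the whole gene does not show which exons an allele lacks. The 5 fibroblast markers summed to 8973 to 23042 CPM in wild-type organoids and 40159 to 49388 CPM in those labelled RNF138-/-, against 897 to 1709 CPM in tissue, and none of the 5 was at 0. The 4 smooth muscle markers summed to 2140 to 6899 CPM in wild-type CAC tissue and 101.1 to 202 CPM in CAC tissue labelled RNF138-/-, and the 7 B and plasma cell markers to 1571 to 2355 CPM and 129 to 263 CPM. The 4 Y-linked genes had 0 counts in all wild-type organoids and 3239 to 5315 counts in the organoids labelled RNF138-/-, so that genotype and sex cannot be told apart there. The colitis libraries numbered 3, one of each genotype, stood apart from the other colitis libraries, lying above all 4 of them for 15.6% of genes and below all 4 for 20.4%. Among 85 members the libraries of one number also stood apart together in the other models: number 1 lay above the other 4 in CAC for 30 members (beside 5.41% of genes), and in organoids number 2 above for 22 (beside 2.72%) and number 3 below for 21 (beside 3.04%). In bulk samples fewer cells of a type and less RNA per cell cannot be told apart.

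Start-site sequences show how the members differ at the end of the message that the TOP tract occupies. RefSeq gave promoter windows on GRCm38.p6 for 64 of the 88 members, with 76 transcription starts. A start was called TOP-like when its first base was C and the following 4 bases were C or T. That held for 14 member starts (18.4%), each of a different member, and for 2.51% of the 32851 starts in the table. The 6-base motif TTCCGG, searched on both strands from 250 bases before to 50 bases after each start, was found for 36 member starts (47.4%) and for 14.9% of all starts. A match can overlap the bases tested for the TOP rule. The windows below are shown for the members on which the comparisons turn, each with 15 bases before the start and 15 from it, 5′ to 3′ on the gene's own strand, with the first 5 transcribed bases in capitals. The first set holds TOP-like starts.
Rps27, chr3:90213634-90213663, minus strand: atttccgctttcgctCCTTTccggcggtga
Rps21, chr2:180257364-180257393, plus strand: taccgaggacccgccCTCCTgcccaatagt
Rpl15, chr14:18270972-18271001, minus strand: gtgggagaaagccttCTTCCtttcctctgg
Rpl35, chr2:39005117-39005146, minus strand: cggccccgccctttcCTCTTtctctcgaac
Rps6, chr4:86857353-86857382, minus strand: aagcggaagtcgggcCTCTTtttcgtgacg

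The second set holds starts that did not meet the rule. Rpl27 and Rpl18 were among the members with the widest differences between colitis and CAC, and Rps27l, Rpl22l1 and Rpl7l1 are the paralogs that were expressed at a level that allows comparison.
Rpl27, chr11:101442230-101442259, plus strand: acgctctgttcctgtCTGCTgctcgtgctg
Rpl18, chr7:45718056-45718085, plus strand: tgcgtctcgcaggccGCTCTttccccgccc
Rps27l, chr9:66946071-66946100, plus strand: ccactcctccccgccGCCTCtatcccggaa
Rpl22l1, chr3:28805493-28805522, plus strand: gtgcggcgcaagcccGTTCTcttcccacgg
Rpl7l1, chr17:46782642-46782671, minus strand: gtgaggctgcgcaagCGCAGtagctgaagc

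Rps27 thus met the rule and its paralog Rps27l did not. A match to these letters is a description of the annotated start and says nothing of where transcription began in these samples.

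Ribosomal protein genes were among the abundant messages of every library. Per kilobase of its principal transcript the leading member in each of the 6 groups was Rplp1, a protein of the stalk that recruits elongation factors, with group means of 1439.5 to 3175.2 CPM per kb. Over all libraries it averaged 2199.5 CPM per kb, beside 1620.8 for Rps14, 1475.5 for Rps27, 1409.6 for Rpl41 and 1372.6 for Rps12. The order after Rplp1 was not the same in each group: Rps14 stood at 1936 and 2548 CPM per kb in wild-type colitis and colitis labelled RNF138-/-, but at 688 and 595 in CAC, where Rps29 stood at 1415 and 1071. Together the 88 members took 3.07% to 6.79% of all counts in a library. The share was 5.28% ± 0.456 (SD, n = 3) in wild-type colitis and 6.14% ± 0.566 in colitis labelled RNF138-/-, 4.06% ± 0.974 and 4.50% ± 0.226 in CAC, and 5.76% ± 0.937 and 4.32% ± 0.205 in organoids. The counting error of each share was small beside the spread between libraries: the exact 95% Clopper-Pearson interval of the highest CAC wild-type share ran from 5.004% to 5.027%. Intervals cover counting error only.

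Scaled by TMM, which sets libraries against each other by genes that move little, the summed level of the members ran from 48112 to 55898 CPM in wild-type colitis and from 56199 to 70943 CPM in colitis labelled RNF138-/-. It ran from 33421 to 45045 CPM and from 33859 to 37930 CPM in the corresponding CAC groups, and from 55350 to 69745 CPM and from 50316 to 56653 CPM in organoids. Every CAC library lay below every colitis and every organoid library on this scale. The counts of large-subunit genes were 1.27 to 1.33 times those of small-subunit genes in colitis, 1.29 to 1.35 times in wild-type CAC, 1.36 to 1.40 times in CAC labelled RNF138-/- and 1.34 to 1.37 times in organoids. Every colitis library thus lay below every organoid library and every CAC library labelled RNF138-/-, by small steps and with no test.

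**Figure D1:**
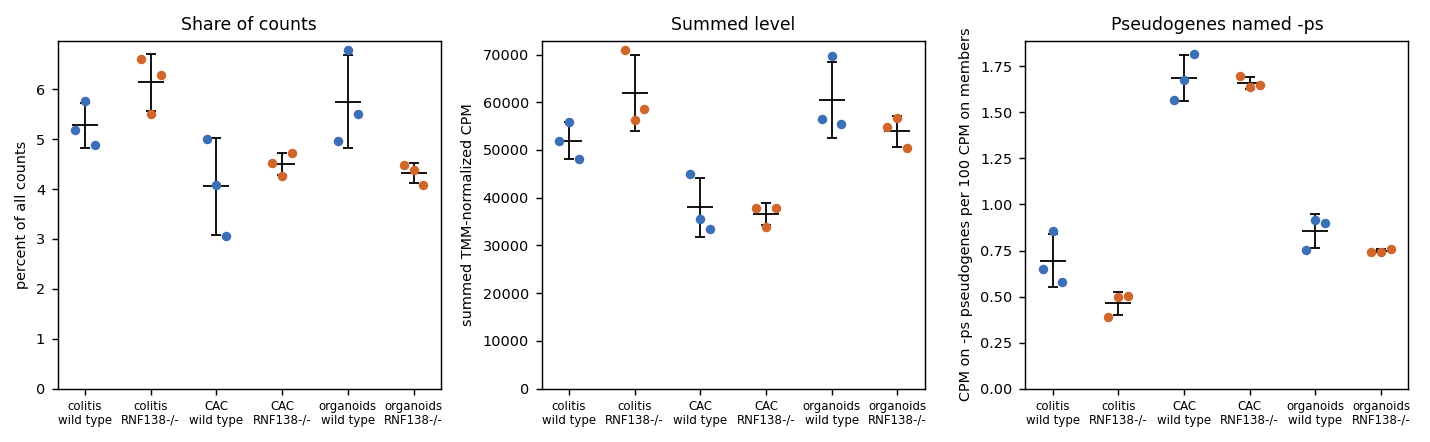
Share of all counts (percent, left), summed TMM-normalized CPM (middle) of the ribosomal protein genes, and CPM of the pseudogenes named -ps per 100 CPM of the members (right), by model and genotype; points are libraries and bars the mean ± SD. In the middle panel the 6 CAC libraries sit between 33421 and 45045 CPM, below the 12 others, which reach 70943 CPM, and in the right panel they sit above all others, at 1.57 to 1.82.

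The comparison of CAC with colitis tissue asked how the members differed once AOM had been given, within each genotype. In wild-type tissue 31 of 86 tested members were lower in CAC (36%, beside 7.55% of all 19390 genes tested) and 7 were higher (beside 12.3%, and 6 without the pseudogene Rpl32l, which passed the filter on low counts through CAC), at an adjusted p under 0.05 from edgeR's quasi-likelihood test over all 18 libraries. The median log2 difference of the members was -0.37, beside 0.04 for all genes. In tissue labelled RNF138-/- 60 members were lower (69.8%, beside 26.7% of genes) and 6 were higher (beside 28%, and 5 without Rpl32l), with a median of -0.73 beside 0.04. The count of 60 was 34 with library totals in place of TMM (beside 19.7% of genes), and that of 31 was 15 with the 6 compared libraries alone (beside 4.52%). On raw shares of counts wild-type colitis (4.88% to 5.78%) and CAC (3.07% to 5.02%) overlapped, and tissue labelled RNF138-/- did not (5.52% to 6.62% and 4.27% to 4.72%). At a fold of at least 2 the counts were 10 lower (beside 3.81% of genes) and 5 higher (beside 9.78%) in wild type, and 23 lower (beside 19.6%) and 5 higher (beside 17.5%) in the libraries labelled RNF138-/-, Rpl32l being 1 of the 5 each time. Without any test, 42 members had lower CPM in all 3 wild-type CAC libraries than in all 3 colitis libraries (48.8%, beside 16% of genes).

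Of the 31 members lower in wild type, 30 were also lower in tissue labelled RNF138-/- (96.8% of the first list and 50% of the second), the exception being Rpl7l1. The 2 comparisons share no library. Both subunits took part: in wild type 20 of 49 large-subunit and 11 of 32 small-subunit genes were lower, and in tissue labelled RNF138-/- 32 and 27. AOM, tumour content and any batch of preparation cannot be told apart in either comparison.

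Rps14, a small-subunit protein near the mRNA exit whose loss of 1 copy causes the anaemia of the 5q- syndrome in people, fell in both genotypes. Its level was 1657, 1828 and 1076 CPM in the 3 wild-type colitis libraries and 641, 484 and 495 CPM in wild-type CAC. In the libraries labelled RNF138-/- it was 2450, 1904 and 1648 CPM in colitis and 469, 406 and 525 CPM in CAC. The groups did not overlap in either genotype, and the lowest colitis value in each belonged to the library numbered 3. The log2 difference was -1.49 (SE 0.23, adjusted p = 0.0004) in wild type and -2.10 (SE 0.24, adjusted p = 7.19e-06) in the libraries labelled RNF138-/-.

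Rpl27, a large-subunit protein (gene on mm10 chromosome 11, 101442298 to 101445529, plus strand), showed the widest fall of any member in wild type. It stood at 788, 831 and 542 CPM in wild-type colitis and at 278, 218 and 216 CPM in wild-type CAC, with a log2 difference of -1.60 (SE 0.19, adjusted p = 4.97e-05). All colitis libraries lay above all CAC libraries. Rpl18, of the large subunit, came after Rpl27 and Rps14, at 1083, 1214 and 793 CPM against 507, 373 and 377 CPM, a difference of -1.30 (adjusted p = 0.000575). Rps16, of the small subunit, differed by -1.28 (adjusted p = 0.000505) and Rpl31, at the rim of the exit tunnel, by -1.21 (adjusted p = 0.00215). For Rpl31, 25.3% of the exonic bases also lie in exons of Tbc1d8.

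In tissue labelled RNF138-/- the coding members after Rps14 were Rps27 and Rps21, both with TOP-like starts. Rps27 (chromosome 3, 90212522 to 90213651, minus strand) encodes a zinc-finger protein of the small subunit. It stood at 974, 908 and 682 CPM in colitis and at 228, 182 and 241 CPM in CAC, 3.94-fold lower (log2 difference -1.98, SE 0.23, adjusted p = 9.75e-06). Rps21 stood at 613, 439 and 561 CPM against 181, 133 and 160 CPM (log2 difference -1.77, adjusted p = 1.9e-05). The colitis and CAC libraries were apart for both genes, by more than the spread within either group. Rpl18 differed by -1.69 (adjusted p = 1.66e-05) and the pseudogene Rps4l by -2.24 (adjusted p = 0.000572).

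Counts by role stand beside 7.55% of all genes lower and 12.3% higher in wild type, and 26.7% lower and 28% higher in tissue labelled RNF138-/-. The stalk proteins Rplp0, Rplp1, Rplp2 and Rpl12 fell for 2 of 4 in wild type and for 4 of 4 in tissue labelled RNF138-/-. The mRNA exit proteins Rps14, Rps26 and Rps28 fell for 2 of 3 and 3 of 3, and the decoding and mRNA entry proteins Rps2, Rps3, Rps15 and Rps23 for 1 and 3 of 4. Rpl5 and Rpl11 form the particle with 5S ribosomal RNA that can bind Mdm2, and of these Rpl11 fell in both genotypes (-0.68 and -1.10) while Rpl5 passed in neither. Rps6, the substrate of S6 kinase, differed by -0.35 without passing in wild type and fell by 0.51 on the log2 scale in tissue labelled RNF138-/-. The X-linked members Rps4x, Rpl10, Rpl36a and Rpl39 fell for 2 and 4 of 4. Among the exit tunnel proteins 2 of 8 fell in wild type and 4 of 8 in tissue labelled RNF138-/-, while 2, Rpl19 and Rpl23a, rose in both, a share of 8 that is close to that of all genes in tissue labelled RNF138-/-.

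Apart from Rpl32l, the members that rose in wild type were the pseudogenes Rps3a3, Rpl6l and Rps3a2 and the coding genes Rpl23a, Rpl22l1 and Rpl19. In tissue labelled RNF138-/- they were the same genes except Rps3a2. Rpl32l had 1, 5 and 8 counts in wild-type colitis and 185, 183 and 95 in wild-type CAC, and 10, 11 and 7 against 194, 241 and 226 in the libraries labelled RNF138-/-, so that every CAC library was above every colitis library. It had too few counts to be tested within colitis or organoids and entered the fit over 18 libraries through its CAC counts, so its difference is given as counts alone. Rps3a3 stood at 1.00 to 1.55 CPM in wild-type colitis and at 21.1 to 28.8 CPM in wild-type CAC (4.21, adjusted p = 5.16e-07). These pseudogenes share sequence with expressed genes of the family: 35.4% of the 50-base windows of Rpl32l and 65.1% of those of Rps3a3 occur in other annotated transcripts, so that reads could be assigned to either.

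Rpl23a, an exit tunnel protein that contacts the signal recognition particle, had few counts for a ribosomal protein gene. It stood at 4.35, 5.56 and 34.2 CPM in wild-type colitis, 6.22, 5.45 and 26.8 CPM in colitis labelled RNF138-/-, 95.8, 78.5 and 48.0 CPM in wild-type CAC and 115, 70.0 and 70.9 CPM in CAC labelled RNF138-/-. The colitis libraries numbered 3 lay above the other 4 and below all CAC libraries. The log2 differences were 2.34 (SE 0.67, adjusted p = 0.0228) and 2.73 (SE 0.68, adjusted p = 0.00322), and with both libraries numbered 3 left out, a setting chosen after seeing the data, they were 3.89 and 3.81. The wild-type call was lost without colitis replicate 1 or 2 or CAC replicate 1 or 2, with adjusted p-values up to 0.105 and differences of at least 1.86, and that in the libraries labelled RNF138-/- was kept without each library. Its gene (chromosome 11, 78180932 to 78183584, minus strand) shares 62.3% of its exonic bases with exons of Tlcd1 and Snord42b, and 50.1% of its windows with other transcripts.

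Rpl22l1 (chromosome 3, 28805436 to 28807424, plus strand) is the paralog that Rpl22 is known to repress. It stood at 5.36, 8.92 and 29.8 CPM in wild-type colitis and at 48.8, 35.0 and 42.9 CPM in wild-type CAC, a log2 difference of 1.52 (SE 0.48, adjusted p = 0.0355). In the libraries labelled RNF138-/- it stood at 12.0, 9.05 and 25.3 CPM against 57.7, 32.7 and 39.6 CPM, a difference of 1.49 (SE 0.48, adjusted p = 0.0155). The groups did not overlap, and here too the colitis libraries numbered 3 were the highest of their groups. Without both of them the differences were 2.55 and 1.98. The wild-type call was lost without any 1 of the other 5 libraries (adjusted p up to 0.159, differences of at least 1.08). In the libraries labelled RNF138-/- it was lost without colitis replicate 1, colitis replicate 2 or CAC replicate 1 (adjusted p up to 0.096).

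With both colitis libraries numbered 3 left out, 29 of the 31 lower members and 6 of the 7 higher ones were called again in wild type. In tissue labelled RNF138-/- 59 of the 60 lower members and all 6 higher ones, Rpl32l among them, were called again. This fit shares its other libraries with the main one. The count of 7 members higher in wild type became 3 without colitis wild-type replicate 1, without colitis wild-type replicate 2, or without CAC wild-type replicate 1. In tissue labelled RNF138-/- the 8 epithelial markers summed to 7339 to 10738 CPM in colitis and 5424 to 6243 CPM in CAC, with 4 of 8 lower and 1 higher, and the 5 T cell markers to 31.4 to 39.1 CPM and 6.96 to 16.0 CPM, with 2 lower. All 4 smooth muscle markers and all 7 B and plasma cell markers were lower there too, and no marker of these 2 lists was lower in wild type. The 3 fat markers summed to 22.2 to 133 CPM in colitis and 14.3 to 15.2 CPM in CAC, with Adipoq at 0 in all of the latter, and of the 6 myeloid markers 3 were higher and 1 lower. The part of these markers in the wider list of tissue labelled RNF138-/- was not tested.

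**Figure D2:**
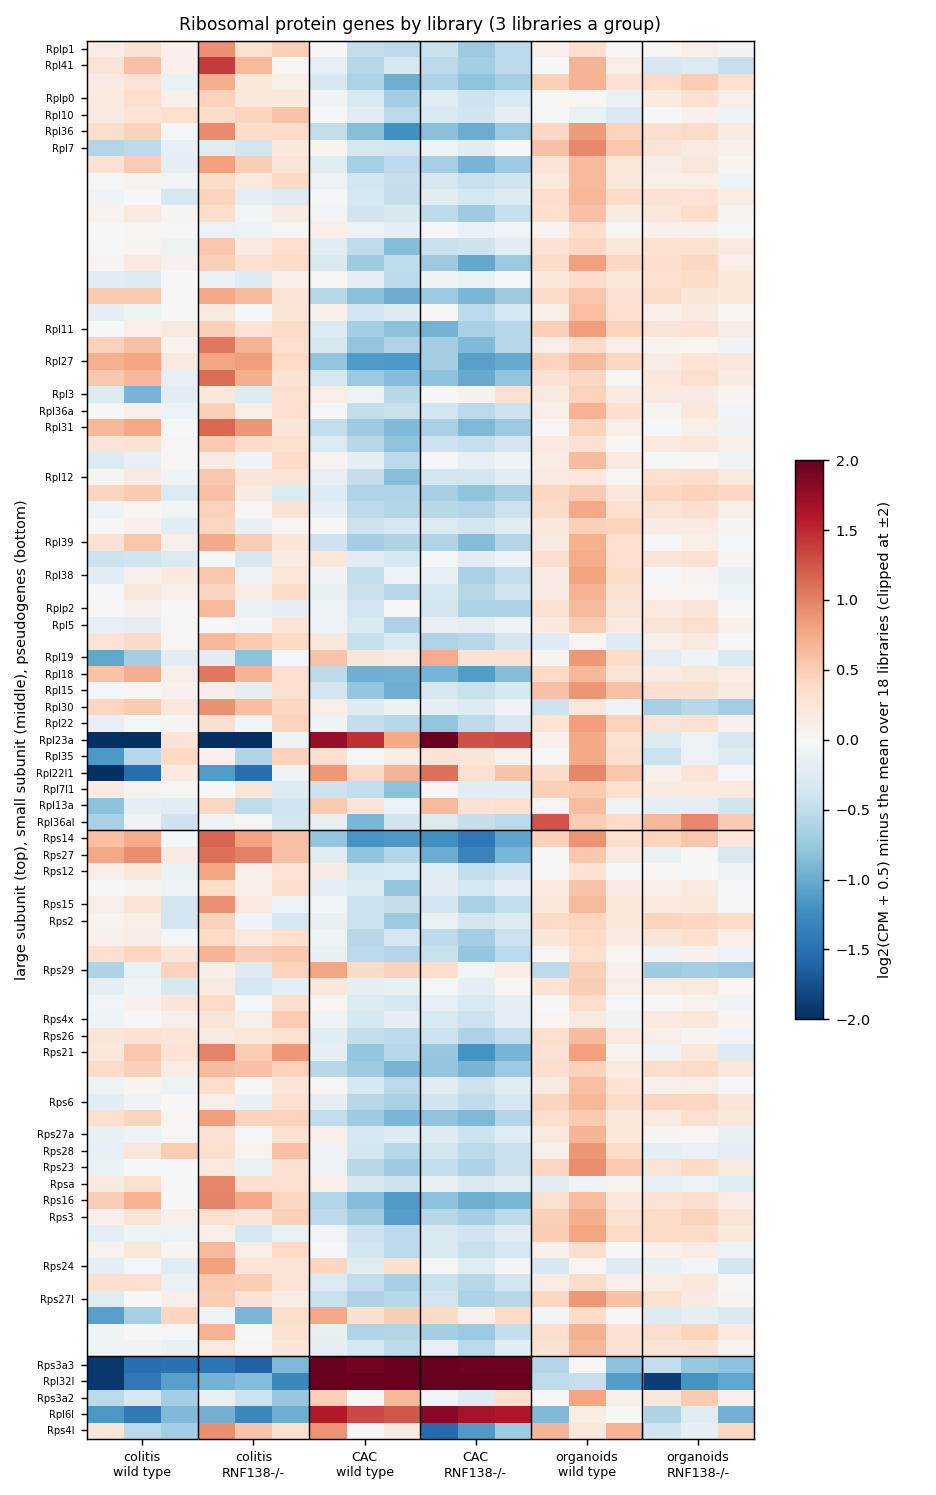
Level of the 85 members with at least 180 counts over all libraries, one row per gene, with names beside some of those described in the text, and one column per library, as log2(CPM + 0.5) minus the gene's mean over the 18 libraries, with colours limited to 2 on either side. The CAC columns are low for most coding members, and the pseudogenes Rpl32l, Rps3a3 and Rpl6l and the coding gene Rpl23a are high there.

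Organoids were compared with CAC tissue of the same genotype, which asks how cultures grown from tumour-bearing fragments differed from the tissue. The 8 epithelial markers summed to 7929 to 8796 CPM in wild-type organoids and 4597 to 6702 CPM in those labelled RNF138-/-, overlapping CAC at 6673 to 13707 and 5424 to 6243 CPM, while the fibroblast markers given above were higher in every organoid library than in every tissue library. In wild type 61 of 86 members were higher in organoids (70.9%, beside 27% of all genes) and 3 were lower (beside 33.7%, and 2 without Rpl32l), with a median log2 difference of 0.68 beside -0.14 for all genes. In the libraries labelled RNF138-/- 51 were higher (59.3%, beside 25.7%) and 8 lower (beside 34.2%, and 7 without Rpl32l), with a median of 0.53 beside -0.22. At a fold of at least 2 the counts were 17 higher (beside 17.5% of genes) and 3 lower (beside 26.8%) in wild type, and 14 higher (beside 17.9%) and 4 lower (beside 26.5%) in the others, Rpl32l being 1 of the lower members in both. The 2 comparisons share no library, and 47 members were higher in both, 77% of the wild-type list and 92.2% of the other. The comparisons of CAC with colitis use the same CAC libraries as these, so the values of each are given on their own. Culture and any batch of preparation cannot be told apart here.

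The scale of these differences depends on how libraries are set against each other. TMM factors were 1.20 to 1.26 for the CAC libraries labelled RNF138-/- and 0.78 to 0.82 for the organoids labelled RNF138-/-. With library totals in place of TMM the median of all genes shifted to -0.84 and that of the members to -0.09, so that 9 members were higher and 18 lower, while the members stood 0.76 above all genes under both. On raw shares of counts the 2 groups overlapped, at 4.27% to 4.72% in CAC and 4.09% to 4.48% in organoids. The higher level of the members in these organoids is therefore a level relative to other genes.

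Rps14 was again among the leading members. Its organoid values were 1523, 2042 and 1375 CPM in wild type and 1484, 1612 and 1285 CPM in those labelled RNF138-/-, against the CAC values of 406 to 641 CPM. Every organoid library lay above every CAC library, with log2 differences of 1.61 (SE 0.23, adjusted p = 2.92e-05) and 1.65 (SE 0.23, adjusted p = 2.18e-05). Rpl27 stood at 660, 745 and 638 CPM in wild-type organoids (difference 1.52, adjusted p = 8.01e-06). Rpl15, a core protein of the large subunit with a TOP-like start, stood at 352, 268 and 231 CPM in wild-type CAC and at 683, 845 and 684 CPM in wild-type organoids (1.38, SE 0.17, adjusted p = 7.83e-06). Rpl36, of the large subunit, differed by 1.41 (adjusted p = 4.21e-05) in wild type and 1.17 (adjusted p = 0.000217) in the libraries labelled RNF138-/-. Rps16 differed by 1.16 in the latter (adjusted p = 0.000164).

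Among the paralogs, Rps27l stood at 96.0, 84.9 and 87.8 CPM in wild-type CAC and at 174, 240 and 196 CPM in wild-type organoids, 2.27-fold higher (log2 difference 1.18, SE 0.15, adjusted p = 1.01e-05), with no overlap. Rpl36al, the paralog of Rpl36a, had the highest fitted difference in wild type, 1.74 (SE 0.41, adjusted p = 0.00173), at a low level of 0.38 to 0.98 CPM in CAC and 1.68 to 3.46 CPM in organoids, and 24.5% of its exonic bases lie in exons of Gm49383. It also rose by 1.62 in the libraries labelled RNF138-/- (adjusted p = 0.00236). Rps4l stood at 0.42, 0.73 and 1.13 CPM in CAC labelled RNF138-/- and at 1.54, 1.85 and 3.13 CPM in the organoids (1.49, SE 0.44, adjusted p = 0.0086), a call lost without organoid replicate 3 (adjusted p = 0.0527) and with library totals (0.87, adjusted p = 0.0936).

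Counts by role stand beside 27% of all genes higher and 33.7% lower in wild type, and 25.7% higher and 34.2% lower in the libraries labelled RNF138-/-. Stalk proteins rose in organoids for 3 of 4 in wild type and for 4 of 4 in the libraries labelled RNF138-/-, decoding proteins for 4 of 4 in both, and mRNA exit proteins for 3 of 3 and 2 of 3. Both Rpl5 and Rpl11 rose in wild-type organoids, and Rpl11 alone passed in those labelled RNF138-/-. Rps6 rose in both, by 0.95 and 0.79. Exit tunnel proteins rose for 5 of 8 and 4 of 8, and 2 of the 8, Rpl19 and Rpl23a, fell in the organoids labelled RNF138-/-, a smaller share than that of all genes.

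Apart from Rpl32l, the members that fell were the pseudogenes Rps3a3 and Rpl6l in both genotypes (-2.74 and -1.70 in wild type, -2.81 and -2.45 in the libraries labelled RNF138-/-), with Rpl23a, Rps29, Rpl13a, Rpl19 and Rpl30 in the latter. Rpl32l had 17, 13 and 7 counts in wild-type organoids and 1, 8 and 7 in those labelled RNF138-/-. Rpl13a and Rpl30 are members, but were not among those chosen beforehand to be mentioned, and are named after their values were seen. Rpl23a stood at 23.4, 26.0 and 22.2 CPM in the organoids against 115, 70.0 and 70.9 CPM in CAC (-1.84, SE 0.66, adjusted p = 0.0242). Rps29, a small zinc-binding protein of the small subunit, stood at 229, 235 and 228 CPM against 479, 360 and 415 CPM (-0.86, SE 0.27, adjusted p = 0.0132). Both genes had no overlap between the groups, but Rps29 differed by 0.16 (adjusted p = 0.599) once transcript length and GC content were fitted as an offset, and the call of Rpl23a was lost under it (adjusted p = 0.231) and without CAC replicate 1 or any 1 organoid library (adjusted p up to 0.0738). The count of 8 lower members was 4 without CAC replicate 1, organoid replicate 1 or organoid replicate 3 of the libraries labelled RNF138-/-, and 5 without their organoid replicate 2. Marker lists moved with this comparison. Of the 5 fibroblast markers 4 were higher in wild-type organoids than in CAC and 5 in those labelled RNF138-/-. Summed over each list and given as the range over both genotypes, the 7 B and plasma cell markers stood at 0.522 to 1.67 CPM in organoids and 129 to 2355 CPM in CAC. The 5 T cell markers stood at 0 to 0.346 and 6.96 to 26.4 CPM, with Cd3e at 0 in all organoids, and the 6 myeloid markers at 8.53 to 136 and 304 to 882 CPM. The 3 endothelial markers stood at 1.36 to 3.58 and 61.2 to 106 CPM, and the 4 proliferation markers at 56.6 to 131 and 320 to 640 CPM, so that none of these 5 lists overlapped between organoids and CAC. The 4 smooth muscle markers went opposite ways, at 247 to 1192 CPM in wild-type organoids against 2140 to 6899 CPM in CAC, but at 1241 to 1371 CPM against 101.1 to 202 CPM in the libraries labelled RNF138-/-. The 3 fat markers stood at 5.66 to 9.51 against 37.2 to 80.6 CPM in wild type and at 5.26 to 8.43 against 14.3 to 15.2 CPM in the others. Of the 8 epithelial markers 4 were lower and 1 higher in wild type (median -0.97), and 2 were lower in the libraries labelled RNF138-/- (median -0.26). The part of these lists in the members' levels was not tested.

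**Figure D3:**
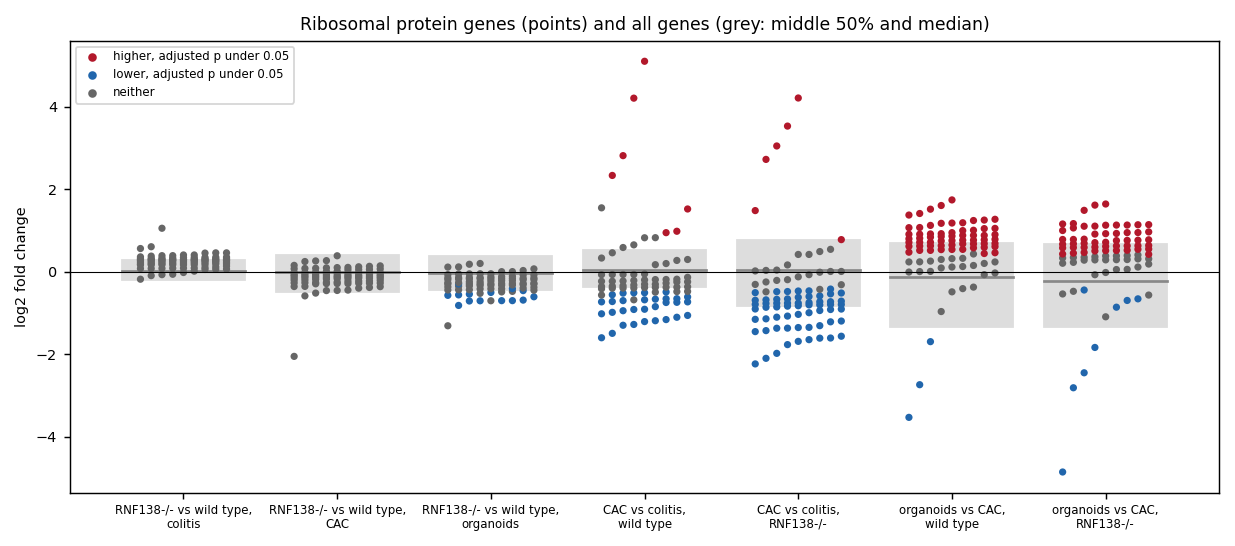
Log2 fold changes of the tested members in 7 comparisons; points are members, red where higher and blue where lower at an adjusted p under 0.05, and grey boxes and lines give the middle 50% and the median of all genes. Most members lie below 0 for CAC against colitis (medians -0.37 and -0.73) and above 0 for organoids against CAC (0.68 and 0.53).

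Within each model, libraries labelled RNF138-/- were compared with wild type. Rpl32l was not tested in colitis and organoids, nor Rpl24 in colitis, for too few counts. In colitis none of the 84 tested members passed in either direction with edgeR's quasi-likelihood test (background 0.018% higher and 0.0722% lower of 16623 genes), and DESeq2 called none. At an unadjusted p under 0.05 there were 2 higher, Rps24 and Rps4l (2.38%, beside 6.08% of genes), and 0 lower (beside 4.33%). The members leaned to one side all the same: 79 of 84 had a log2 difference above 0, with a median of 0.26 beside 0.02 for all genes, and 19 had higher CPM in all 3 libraries labelled RNF138-/- than in all 3 wild-type libraries (22.6%, beside 8.87% of genes). The lowest adjusted p of any member was 0.388. The members of a library move together, so these counts are not independent of each other. The 5 T cell markers summed to 14.9 to 15.8 CPM in wild-type colitis and 31.4 to 39.1 CPM in colitis labelled RNF138-/-, with none at 0, and their part in the members' levels was not tested.

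In CAC none of the 86 tested members passed (background 1.05% higher and 5.33% lower of 17752 genes). At an unadjusted p under 0.05 there was 1 higher, Rpl7l1 (beside 14.1% of genes), and 4 lower, Rplp2, Rps21, Rps27 and Rps4l (beside 19.7%), and DESeq2 called 2 lower. The median was -0.12 beside 0.01 for all genes. With library totals in place of TMM the medians were 0.14 for the members and 0.27 for all genes, so the sign of the members' median turns with the scaling, while they lay 0.12 and 0.13 below all genes under TMM and totals. Rps4l stood at 4.49, 2.21 and 2.55 CPM in wild type and at 0.42, 0.73 and 1.13 CPM in the libraries labelled RNF138-/-, with no overlap, and its log2 difference of -2.05 (SE 0.46, 95% interval -3.15 to -0.96) just missed the threshold (adjusted p = 0.0505), which it passed with DESeq2 (adjusted p = 0.00132), with no filter on low counts and in the fit over all 18 libraries.

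In organoids 14 of 85 tested members were lower in the libraries labelled RNF138-/- (16.5%, beside 17.7% of all 15294 genes) and 0 were higher (beside 17.9%), also 0 with DESeq2 and at an unadjusted p under 0.05 (beside 22.7%). Scaled by TMM the share lower was thus close to that of all genes. With library totals it was 48 members (beside 29.3% of genes, medians -0.49 and -0.24), and with a replicate block 8 (beside 11.9%). None of those that passed reached a fold of 2, while 7.94% of genes passed with such a fold upward and 7.04% downward. The median was -0.28 beside -0.04 for all genes, and 34 members had lower CPM in all 3 libraries labelled RNF138-/- (40%, beside 25.7% of genes).

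Rps29 stood at 261, 522 and 399 CPM in wild-type organoids and at 229, 235 and 228 CPM in those labelled RNF138-/-, a log2 difference of -0.82 (SE 0.23, adjusted p = 0.0275). The wild-type values spread widely while those of the other group lay close together, just below the lowest of them. Rps28, at the mRNA exit, stood at 315, 537 and 373 CPM against 257, 265 and 253 CPM (-0.70, SE 0.20, adjusted p = 0.0272). Rpl35, an exit tunnel protein with a TOP-like start, stood at 63.7, 108 and 81.0 CPM against 46.9, 58.9 and 53.3 CPM (-0.70, SE 0.20, adjusted p = 0.0257). For Rpl35 66.2% of exonic bases lie in exons of Arpc5l or Wdr38. Rpl23a differed by -0.71 (adjusted p = 0.0221) and Rpl19, which spans from the exit tunnel to the small subunit, by -0.70 (adjusted p = 0.0315).

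All 3 well-expressed paralogs were among the 14. Rpl22l1 stood at 34.2, 52.6 and 39.4 CPM against 28.8, 32.1 and 26.9 CPM (-0.56, adjusted p = 0.0405), and Rps27l at 174, 240 and 196 CPM against 161, 146 and 136 CPM (-0.50, adjusted p = 0.0309). Rpl7l1 stood at 129, 133 and 116 CPM against 105, 106 and 106 CPM (-0.29, adjusted p = 0.0488). None of these overlapped between groups. Rpl7, Rpl15, Rpl30, Rpl38 and Rpl41 were also among the 14, of which Rpl30 and Rpl38 are named after their values were seen. In the wild-type group replicate 2 was the highest for each gene named here with its values.

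The count of 14 rested on single libraries. It was 25 without wild-type organoid replicate 1, 2 without replicate 2 and 9 without replicate 3, and 0 without any 1 of the 3 libraries labelled RNF138-/-, where the share of all genes lower was 7.66% to 9.39%. It was also 0 with transcript length and GC content as an offset, under which Rps29 differed by -0.34 (adjusted p = 0.161) and Rps27l by -0.00. Fibroblast markers were higher in every organoid library labelled RNF138-/- than in every wild-type organoid library, and the 6 myeloid markers summed to 89.8 to 136 CPM against 8.53 to 16.0 CPM. The 8 epithelial markers summed to 7929 to 8796 CPM in wild-type organoids against 4597 to 6702 CPM, with 4 of 8 lower and 0 higher. The part of these markers in the members' levels was not tested.

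**Figure D4:**
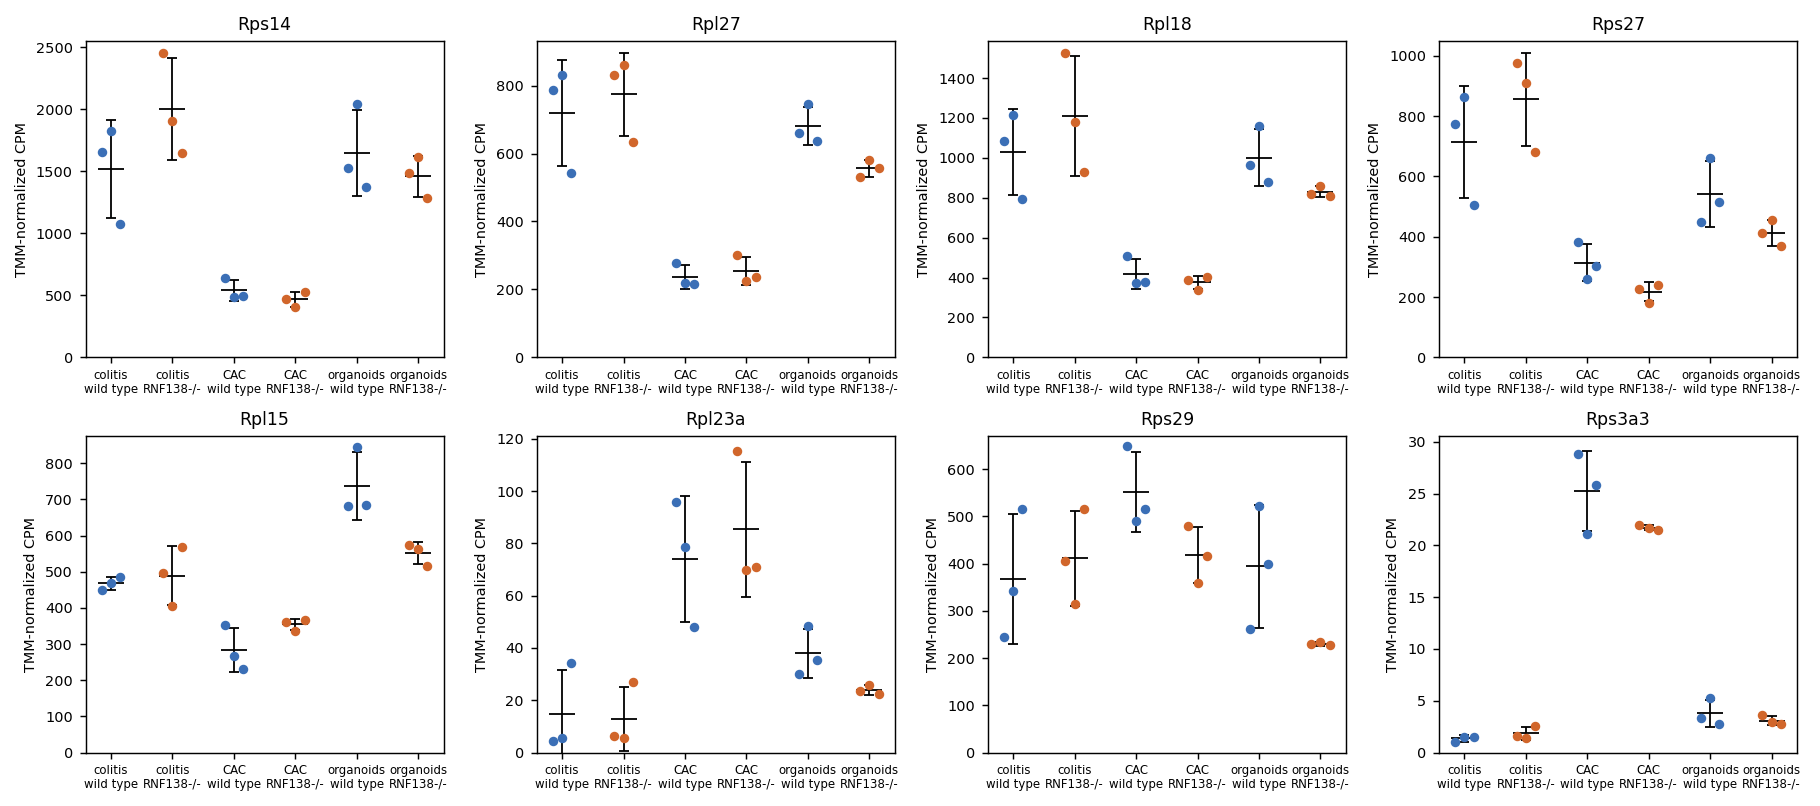
TMM-normalized CPM of 8 members on linear axes from 0, by model and genotype; points are libraries and bars the mean ± SD of 3. Rps14 lies at 1076 to 2450 CPM in colitis and at 406 to 641 CPM in CAC, while Rpl23a and Rps3a3 are highest in CAC.

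The genotype difference itself differed between models for 4 members in the fit over all 18 libraries. The call of Rps4l was kept without each of 12 libraries in turn, while that of Rps24 was lost in 9 of 12 such settings (adjusted p up to 0.103), that of Rpl15 in 10 (up to 0.104) and that of Rpl7l1 in 6 (up to 0.0704). Between CAC and colitis the difference was lower in CAC for Rps24 and Rps4l, 2 of 86 members (2.33%, beside 9.88% of all genes), and higher for none (beside 4.21%), with 1 higher at an unadjusted p under 0.05 (beside 12.4%) and none by DESeq2. More members than these 2 were lower with DESeq2 and with a replicate block, as given at the end. Rps24, of the small subunit, stood at 680, 754 and 661 CPM in wild-type colitis and at 1354, 929 and 917 CPM in colitis labelled RNF138-/-, but at 1033, 650 and 957 CPM and at 750, 647 and 737 CPM in CAC. The groups were apart in colitis and overlapped in CAC. Between organoids and CAC it was lower in organoids for Rpl15 and Rpl7l1 (2.33%, beside 10.2% of genes) and higher for none (beside 13.1%), with 2 higher at an unadjusted p under 0.05 (beside 19%) and 1 by DESeq2. Rpl7l1, which works in large-subunit maturation, stood at 69.5, 66.0 and 52.3 CPM in wild-type CAC and at 94.7, 80.2 and 80.0 CPM in CAC labelled RNF138-/-, the reverse of its order in organoids. Rpl15 stood at 361, 336 and 366 CPM in CAC labelled RNF138-/-, of which 2 lay above all wild-type CAC libraries, and at 575, 564 and 517 CPM in organoids labelled RNF138-/-, all below the wild-type organoids.

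Over the 86 members the median of this difference of differences was -0.34 on the log2 scale between CAC and colitis, beside -0.00 for all genes, and -0.14 between organoids and CAC, beside -0.04. These medians describe genes that move together and carry no test.

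Each paralog was also set against its partner per kilobase of transcript. Rpl22l1 stood at 7.17%, 11.01% and 34.3% of Rpl22 in wild-type colitis and at 11.51%, 11.27% and 22.1% in colitis labelled RNF138-/-, the libraries numbered 3 being the highest of both groups. It stood at 62.7%, 58.0% and 75.7% in wild-type CAC and at 119%, 56.4% and 59.3% in CAC labelled RNF138-/-, where replicate 1 lay apart. In organoids it stood at 33.6% to 35.3% and at 28.7% to 31.2%. For Rps27l beside Rps27, the wild-type means were 13.2% (colitis), 20.1% (CAC) and 26.1% (organoids), and those of the libraries labelled RNF138-/- were 13.3%, 29.4% and 24.9%. For Rpl7l1 beside Rpl7 the wild-type means were 5.34%, 2.91% and 3.10% in the same order of models, and the others 4.202%, 3.66% and 3.72%. For Rpl22l1 every CAC library lay above every library of the other models. Exact two-sided permutation tests of the genotype difference, 15 over 5 pairs and 3 models, gave p-values of 0.1 or more, 0.1 being the smallest that 3 against 3 allows, and adjusted values of 0.375 or more. No interval was computed for these differences, and such a test does not show that the genotypes were alike.

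**Figure D5:**
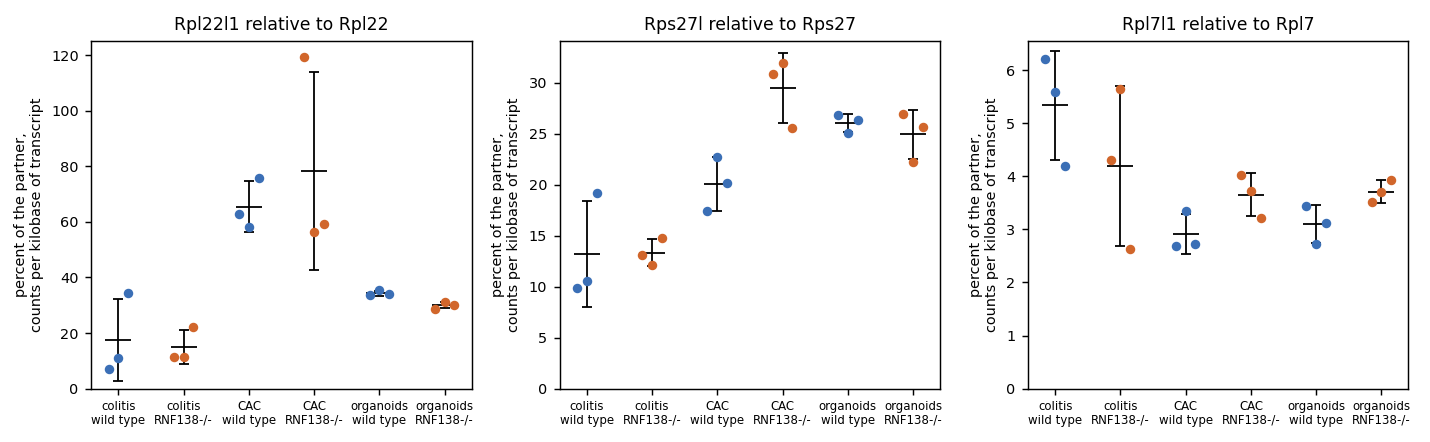
Level of 3 paralogs as a percentage of their partner, both as counts per kilobase of transcript, by model and genotype; points are libraries and bars the mean ± SD of 3. Rpl22l1 lies at 7.17% to 34.3% of Rpl22 in the colitis libraries and at 56.4% to 119% in the CAC libraries.

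Coding members with and without a TOP-like start had medians close to each other, given here with no test. The pseudogene Rpl32l, which also has such a start, is left out. The median log2 difference between CAC and colitis in wild type was -0.38 for the 13 tested coding members with such a start. It was -0.44 for the 48 tested coding members with starts in RefSeq but none TOP-like. In tissue labelled RNF138-/- the medians were -0.68 and -0.76. Between organoids and CAC they were 0.77 and 0.72 in wild type and 0.64 and 0.59 in the libraries labelled RNF138-/-. Rps27 and Rps21 with TOP-like starts, and Rpl27 and Rpl18 without, all fell. The rule was read at the annotated start only, which for Rpl18 lay 2614 bases from the GENCODE start. A member that missed the rule can still have a TOP message, so the split cannot decide whether TOP messages differed from others.

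Members of the family outside the name rule gave mixed values. Fau, which encodes a ubiquitin-like protein fused to small-subunit protein S30, fell from colitis to CAC, with log2 differences of -1.16 in wild type (adjusted p = 0.0106) and -2.17 in tissue labelled RNF138-/-, and was higher in organoids than in CAC by 1.09 and 1.40. Rack1, a scaffold on the small subunit, passed neither comparison of CAC with colitis and rose in organoids of both genotypes. Within the name rule Rps27a, which encodes a ubiquitin fused to a small-subunit protein, differed by -0.06 in wild type without passing and fell by 0.51 in tissue labelled RNF138-/- between colitis and CAC.

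Other genes of the pathway were counted from lists, to be read beside the shares of all genes. These were 12.3% higher and 7.55% lower for CAC against colitis in wild type and 28% and 26.7% in tissue labelled RNF138-/-, and 27% and 33.7%, then 25.7% and 34.2%, for organoids against CAC. Of 43 ribosome biogenesis genes, which act in the nucleolus to make and fold the ribosomal RNA, 3 were higher and 2 lower in wild-type CAC than in colitis (median -0.01), and 27 were higher and 2 lower in tissue labelled RNF138-/- (median 0.71), where 60 of the ribosomal protein genes were lower. Examples were Ltv1 at 2.13, Rrn3 at 1.42, Polr1a at 1.29 and Ncl, nucleolin, at 0.90. In organoids against CAC 34 were higher and 0 lower in wild type (median 0.98), and 6 higher and 7 lower in the libraries labelled RNF138-/-. The genotype difference was greater in CAC than in colitis for 17 and smaller for 0 (median 0.80, beside 4.21% and 9.88% of all genes), and smaller in organoids than in CAC for 28 and greater for 0 (median -0.90, beside 10.2% and 13.1%).

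Of 19 other genes, a list of TOP messages and translation genes such as elongation factors, 1 was higher and 1 lower in wild-type CAC. In tissue labelled RNF138-/- 7 were higher, among them Eef1a1 (0.60) and Pabpc1 (1.58), and 1 was lower (beside 28% and 26.7% of all genes). In organoids 11 were higher than in CAC in wild type (beside 27%) and 8 in the libraries labelled RNF138-/- (beside 25.7%), where 2 were lower. Of 77 mitochondrial ribosomal protein genes, 11 were lower and 3 higher in wild-type CAC than in colitis (beside 7.55% and 12.3% of all genes) and 33 lower and 5 higher in tissue labelled RNF138-/- (beside 26.7% and 28%). For organoids against CAC 15 were higher and 9 lower in wild type (median -0.00, beside 27% and 33.7%). In the libraries labelled RNF138-/- 6 were higher and 21 lower (median -0.29, beside 25.7% and 34.2%). In organoids 34 of the 77 were lower in the libraries labelled RNF138-/- than in wild type and 0 higher (beside 17.7% and 17.9% of all genes), with a median of -0.44. Of 12 regulators, 1 was higher and 0 lower in wild-type CAC than in colitis, and 6 were higher and 2 lower in tissue labelled RNF138-/-. In organoids against CAC 6 were higher and 2 lower in wild type and 3 higher and 1 lower in the libraries labelled RNF138-/-. Myc, which drives ribosome production, was among those higher in CAC in tissue labelled RNF138-/- (1.69) and in wild-type organoids (2.28). Between the organoid genotypes Myc was lower in the libraries labelled RNF138-/- (-0.66, adjusted p = 0.0067), while Mtor, the kinase of the mTOR complexes (0.34, adjusted p = 0.0463), and Rptor, its partner in the first of them (0.42, adjusted p = 0.0292), were higher.

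The 225 pseudogenes of the family whose symbols end in -ps had a higher summed level in CAC than in colitis, while 31 of 81 coding members in wild type and 59 of 81 in tissue labelled RNF138-/- were lower. The pseudogenes summed to 278 to 478 CPM in wild-type colitis and 277 to 293 CPM in colitis labelled RNF138-/-, 595 to 706 and 554 to 641 CPM in CAC, and 425 to 639 and 381 to 422 CPM in organoids, so that the CAC libraries lay above all colitis libraries and overlapped the wild-type organoids. Only 55 of them could be tested within colitis and 55 within organoids, against 107 within CAC, so many entered a comparison across models through their CAC counts and no count of calls is given. Per 100 CPM of the members they took 0.577 to 0.855 CPM in wild-type colitis and 0.391 to 0.501 in colitis labelled RNF138-/-, 1.57 to 1.82 and 1.64 to 1.70 in CAC, and 0.752 to 0.916 and 0.744 to 0.758 in organoids, so that the 6 CAC libraries lay above the 12 others. The reads of a pseudogene and its parent cannot be told apart where their sequences agree.

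Coding members were also grouped by how much sequence they share with other genes. Between CAC and colitis in wild type the median log2 difference was -0.56 for coding members with under 10% of 50-base windows in other transcripts, -0.49 for 10% to 20%, -0.30 for 20% to 30% and -0.36 above that. Members with at least 20% of exonic bases in exons of other genes had a median of -0.13, and the rest -0.40. The former hold coding members with few counts, such as Rpl23a, Rpl24 (47%) and Rpl13a (35.4%).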

How the data were processed

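RNA from 18 libraries (3 per group) was sequenced after TruSeq preparation, on a HiSeq by the series description and a NovaSeq by the paper. The authors deposited whole-number counts of reads per gene for all libraries, and the submitters' processing notes name STAR 2.6.1d, HTSeq 0.11.2, DESeq2 and mm10, while the paper's methods name Cufflinks. The counting mode and strand setting are not given in the sources used here. Deposited tables of the authors' own log2 fold changes and p-values were not used. Genes were tested with edgeR 4.0.16 (quasi-likelihood F test, TMM, filterByExpr) in R 4.3.3: genotype within each model on its 6 libraries, and models and differences of genotype effects in 1 fit over 18. A gene passed at a Benjamini-Hochberg adjusted p under 0.05, and counts at a fold of 2 are also given. CPM are TMM-normalized over 18 libraries, and levels per kilobase use the principal transcript in GENCODE M21 (best APPRIS rank, then the longest), to which 36700 of 36757 IDs matched. Alternatives were RLE scaling, TMM without the members, library totals, no filter, DESeq2 1.42.0, a replicate block, a length and GC offset, other sample sets, a Y-linked covariate and leaving out each library. The steps were tested on simulated data. Members and lists were chosen with earlier results of these data known. Named were paralogs with partners, members of the role lists, the 5 most abundant per kilobase and, per comparison, the 5 members furthest up and down among those passing without overlap of the groups, and exceptions are marked. Sample numbers were not used as pairs. Results for some genes are not reported here.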

Additional observations from a re-analysis of the deposited data

Results flagged for a closer look

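For 4 members the genotype difference itself differed between models by the interaction term of edgeR's quasi-likelihood fit over 18 libraries, which is what marked them for a closer look. Between CAC and colitis, the log2 difference of differences was -0.919 for Rps24 (adjusted p = 0.0414) and -3.06 for Rps4l (adjusted p = 0.00541). Between organoids and CAC it was -0.738 for Rpl15 (adjusted p = 0.0373) and -0.696 for Rpl7l1 (adjusted p = 0.0245). Rps4l stayed past the threshold without each of the 12 libraries in turn, with an adjusted p of 0.0191 at most. Rps24 missed it in 9 of 12 such settings (adjusted p up to 0.103), being kept without colitis replicate 2 or 3 labelled RNF138-/- or without wild-type CAC replicate 2. Rpl15 missed it in 10 of 12 (up to 0.104), being kept without wild-type CAC replicate 1 or wild-type organoid replicate 1. Rpl7l1 missed it in 6 of 12 (up to 0.0704), without wild-type CAC replicate 3, CAC replicate 1 labelled RNF138-/-, wild-type organoid replicate 2 or any organoid library labelled RNF138-/-. All 4 kept their direction in each of these settings. Rps4l is a pseudogene with at most 4.60 CPM in any library, and its values stand on few counts.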

How the results depend on the processing

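Counts of members moved past 1.5 times the reported value under these settings. In CAC by genotype 1 member was higher in the 18-library fit, and 1 was lower with no filter, 2 with DESeq2 and 1 in the 18-library fit, against 0. In organoids by genotype 14 lower became 48 with library totals, 0 with the length and GC offset and 3 in the 18-library fit, and 1 member was higher with the offset. For CAC against colitis in wild type, 7 higher became 4 with the offset and 4 with the 6 compared libraries alone, which gave 15 lower in place of 31. In tissue labelled RNF138-/- 60 lower became 34 with totals. For organoids against CAC labelled RNF138-/-, totals gave 9 higher and 18 lower, and the offset 4 lower, where Rps29 turned to 0.16. The cause was not tested. For the difference of genotype effects between CAC and colitis, 2 lower became 8 with DESeq2 and 1 without both colitis libraries numbered 3, an alternative chosen after seeing the data, and between organoids and CAC DESeq2 gave 1 higher.

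The sample numbers were not used as pairs. Correlations of same-numbered deviations ran from -0.12 to 0.38, and in no comparison were all 3 above 0.1. The highest was that of the colitis libraries numbered 3. Libraries of one number stood apart together for some members, as given above, and whether they shared a batch was not tested. A replicate block gave 8 lower members in organoids by genotype and 4 in the difference between CAC and colitis. Not every sample correlated best with its own number.

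Leaving out 1 library at a time gave 0 to 25 lower and 0 higher in organoids by genotype, and 0 in either direction in colitis and CAC. It gave 3 to 9 higher and 22 to 36 lower for CAC against colitis in wild type, 4 to 6 and 50 to 61 in tissue labelled RNF138-/-, 50 to 60 higher and 3 to 4 lower for organoids against CAC in wild type, and 40 to 50 and 4 to 6 in the libraries labelled RNF138-/-. For the differences of genotype effects it gave 1 to 5 lower and 0 higher between CAC and colitis, and 0 to 2 lower and 0 to 1 higher between organoids and CAC. Where 1 group was left with 2 libraries, these were assumed to vary like the others. Of 43 values of single members, tried 348 times under the other settings, 319 kept direction and side of the threshold, 25 lost and 3 gained the threshold and 1 turned. In 76 of the 282 settings that left out 1 library, such a value lost or newly passed the threshold.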
